A study of Caenorhabditis elegans with 2 samples.

Results

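Small nucleolar RNA (snoRNA) genes were examined for binding of LSY-2, a zinc finger transcription factor, in the nematode Caenorhabditis elegans. The members are all 346 genes of biotype snoRNA in the Ensembl WBcel235 annotation, of 46890 annotated nuclear genes. A member was called bound when a deposited peak had its summit in the promoter window, which reached from 1000 bp before the start to 200 bp past it. The series holds 1 group of 2 biological replicates: chromatin of whole L1 larvae, males and females pooled, of strain OP367 (unc-119(tm4063) III; wgIs367). This strain carries the unc-119(tm4063) allele on chromosome III and the insertion wgIs367, which holds lsy-2 tagged with eGFP. Both replicates have this genotype and no treatment is given, so there is no comparison between conditions. The labels give lsy-2 as the antibody entry and eGFP-lsy-2 as the protein assayed, and list possible control experiments, which are not analysed here. All cells of the larva were pooled, so a site bound weakly in many cells and a site bound strongly in few cells cannot be told apart. The tagged protein comes from a transgene, and binding by untagged LSY-2 was not measured.

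snoRNAs guide the chemical modification of other RNAs in the nucleolus. Box C/D snoRNAs direct ribose methylation and box H/ACA snoRNAs direct pseudouridylation, mostly of ribosomal RNA and of the snRNAs of the spliceosome. Some snoRNAs are cut out of introns of a host gene and depend on the promoter of that host, and others are transcribed from promoters of their own. snRNA genes of C. elegans have a proximal sequence element just upstream of their starts, and tRNA genes have internal A and B boxes that are bound by the transcription factor TFIIIC.

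The members were 54 to 344 bp long, with a median of 130 bp. Of the 346, 216 lay inside the span of a protein-coding gene and 130 lay outside every such span. Among the 216, 183 were on the strand of the host, 143 of them in introns and 40 over a host exon, and 33 were on the opposite strand alone. The start of 153 members was within 1000 bp of a protein-coding start and that of 193 was farther away. No member overlapped another, and all but 21 of the 321 runs of members with gaps up to 1000 bp held a single gene. The members include smy-2 and smy-3, which carry the name of the SmY RNAs, a nematode RNA family linked to trans-splicing, although their biotype is snoRNA. Both had a close summit past the threshold described below, smy-2 with a signal of 184 at -50 bp (replicates 114 and 77.7) and smy-3 with 75.8 at -56 bp (44.4 and 32.2).

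Sequences upstream of 7 members are shown first because they carry 1 of 2 arrangements that recurred beside the peaks, here called the tandem pair. It is GNAACNNG, then 5 bases, then TGTCNG, read on the strand of the gene, and capitals mark its 2 blocks. Each line gives the 110 bases just before the start of the gene, 5′ to 3′, from the RefSeq genome of WBcel235 (ce11). The opening 5 lines are members with strong close peaks, in order of signal, with genes of 1 chromosome left out of the printed lines. The closing 2, K02F6.11 and W03B1.17, had no promoter peak in any list.
Y53F4B.47, chrII:15025894-15026003, minus strand: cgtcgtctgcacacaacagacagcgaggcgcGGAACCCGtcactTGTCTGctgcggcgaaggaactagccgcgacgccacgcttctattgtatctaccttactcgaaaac
ZK994.7, chrV:8500469-8500578, plus strand: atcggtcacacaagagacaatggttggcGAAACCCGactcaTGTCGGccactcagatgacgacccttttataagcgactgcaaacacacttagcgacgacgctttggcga
T26A8.6, chrIV:8428740-8428849, minus strand: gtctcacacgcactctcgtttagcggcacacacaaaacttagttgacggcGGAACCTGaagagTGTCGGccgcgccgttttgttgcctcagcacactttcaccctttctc
C08D8.3, chrV:8348998-8349107, plus strand: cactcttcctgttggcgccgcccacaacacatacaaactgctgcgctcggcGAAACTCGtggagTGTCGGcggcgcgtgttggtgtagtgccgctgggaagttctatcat
F01D5.12, chrII:14018442-14018551, minus strand: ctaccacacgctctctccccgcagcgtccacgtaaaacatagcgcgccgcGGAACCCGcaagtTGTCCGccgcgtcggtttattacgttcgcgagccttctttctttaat
K02F6.11, chrII:2556799-2556908, minus strand: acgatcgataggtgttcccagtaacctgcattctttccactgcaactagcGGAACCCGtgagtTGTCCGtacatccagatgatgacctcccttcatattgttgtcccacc
W03B1.17, chrIV:4347522-4347631, plus strand: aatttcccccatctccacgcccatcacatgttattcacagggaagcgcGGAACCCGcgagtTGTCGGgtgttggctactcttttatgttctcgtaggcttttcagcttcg

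The other arrangement, here called the box pair, is TGGNNNA, then 20 to 70 bases, then GTTCNANNC, again with its 2 blocks in capitals. Its blocks resemble the A and B boxes of tRNA genes. Where several blocks fit, the pair with the shortest gap is marked and counted. In Y43F8C.22 and Y59E1B.14 another TGGNNNA, in lower case just upstream of the marked block, also fits the pair. In C51F7.3 another GTTCNANNC downstream of the marked block does. These lines show 5 members with a summit close to their starts and Y59E1B.14, which had no promoter peak in any list. The pair of C51F7.3 lies within a neighbouring member, C51F7.4.
Y43F8C.22, chrV:19643188-19643297, minus strand: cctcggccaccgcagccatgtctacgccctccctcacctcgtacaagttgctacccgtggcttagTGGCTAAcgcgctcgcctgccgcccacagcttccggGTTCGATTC
M106.6, chrII:10840207-10840316, plus strand: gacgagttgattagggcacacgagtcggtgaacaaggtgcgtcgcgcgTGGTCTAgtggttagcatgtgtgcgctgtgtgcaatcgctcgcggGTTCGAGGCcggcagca
C51F7.3, chrV:12303598-12303707, plus strand: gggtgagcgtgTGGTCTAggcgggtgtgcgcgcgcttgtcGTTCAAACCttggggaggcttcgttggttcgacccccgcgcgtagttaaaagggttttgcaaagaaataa
F30H5.4, chrIII:502694-502803, plus strand: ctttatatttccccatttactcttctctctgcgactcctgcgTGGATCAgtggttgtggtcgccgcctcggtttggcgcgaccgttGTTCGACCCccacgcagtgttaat
F55A11.10, chrV:11782882-11782991, plus strand: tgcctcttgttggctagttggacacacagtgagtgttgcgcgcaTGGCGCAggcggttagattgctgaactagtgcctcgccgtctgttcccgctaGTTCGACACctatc
Y59E1B.14, chrX:1891399-1891508, plus strand: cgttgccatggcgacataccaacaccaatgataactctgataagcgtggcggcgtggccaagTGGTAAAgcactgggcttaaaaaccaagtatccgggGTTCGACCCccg

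LSY-2 peaks past the authors' IDR threshold (irreproducible discovery rate, a measure of how well replicates rank the same peaks) stood at 133 of the 346 snoRNA genes. That is 38.4% of the members (95% exact Clopper-Pearson interval 33.3 to 43.8), beside 10.5% of all annotated genes and 16.9% of protein-coding genes (3385 of 19973). Other small RNA genes had shares of 30.4% (186 of 612 tRNA genes), 20.9% (27 of 129 snRNA genes), 13.4% (35 of 261 microRNA genes) and 1.83% (281 of 15363 piRNA genes). Intervals here and below cover the counting of genes only, and neighbouring genes can share a summit. The shares are given side by side, without a test.

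Before the IDR threshold, the pooled list held a promoter summit at 230 members (66.5%), beside 33.8% of all genes. The list of replicate 1 had one at 233 members (67.3%; 34.2% of all genes) and that of replicate 2 at 238 (68.8%; 36.1% of all genes). Of tRNA genes, 59.2% had one in the pooled list, 63.7% in replicate 1 and 61.9% in replicate 2. The authors label the pooled list as peaks and background, given as input to IDR. The replicates shared 211 members, 90.6% of those of replicate 1 and 88.7% of those of replicate 2, and 86 members had no promoter summit in either. This overlap was not counted over all genes, so it cannot be read as particular to snoRNA genes.

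The 133 bound members fell into 2 kinds by where the summit lay. In 76 members, a summit stood 0 to 100 bp upstream of the snoRNA start, at a median position of -55 bp (quartiles -65.25 and -44.75; negative positions are upstream). In the other 57 members, the strongest summit lay at a median of -506 bp (quartiles -678 and -255). The distance of 100 bp was chosen after the positions had been seen. Summits that close occurred at 22.0% of members (interval 17.7 to 26.7), beside 1.93% of all genes and 2.78% of protein-coding genes. In the lists before IDR, the close window held a summit at 92 members in the pool (26.6%; 5.64% of all genes), 89 in replicate 1 (25.7%; 5.61% of all genes) and 100 in replicate 2 (28.9%; 5.77% of all genes). In the same order, the shares were 29.9%, 27.5% and 30.7% for tRNA genes and 22.5%, 19.4% and 26.4% for snRNA genes. In each list before IDR, the close window thus held a summit at a larger share of tRNA genes than of members. Both replicates had one at 76 members, an overlap that was not counted over all genes. These are not the same 76 as those with a close summit past IDR. For example, T23G11.12, K02C4.8 and D1046.6 had a close summit past IDR but none in the close window in replicate 1.

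The neighbourhoods of the kinds were as follows. The 76 members with a close summit were split evenly, 38 within and 38 over 1000 bp from a protein-coding start, and 40 lay outside coding spans. Among the 57 others, 45 were within 1000 bp of a protein-coding start and 40 lay inside a coding span. A protein-coding start was nearer to the summit than the snoRNA start in 2 of the 76 and in 38 of the 57. The definition of the kinds sets part of this difference, because only a coding start within 100 bp of a close summit could be nearer. The strongest peaks of the 57 had a median signal of 224 (45.5 to 8593) and the close summits one of 119 (43.4 to 590), so their ranges overlap. The signal is the value that the authors gave each peak. Which statistic it holds is not stated in the labels, and it is used here to rank and describe peaks.

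**Figure D1:**
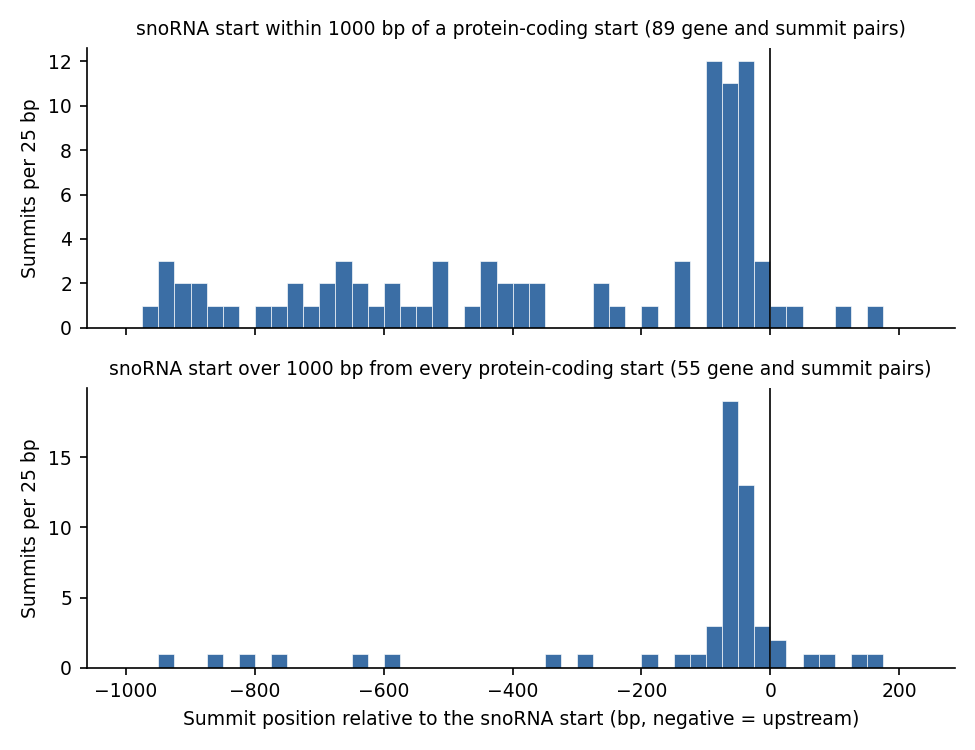
Number of IDR-thresholded summits per 25 bp (y axis) by position relative to the snoRNA start in bp (x axis), each gene and summit pair counted. The upper panel has members within 1000 bp of a protein-coding start and the lower panel those farther away; both gather just upstream of the start, and the spread farther upstream is mostly in the upper panel.

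Counted by summit, 136 distinct peaks lay in a snoRNA window, 3.22% of the 4218 past the threshold. Of these, 99 (72.8%) had no protein-coding start nearer than the snoRNA start and 37 had one. The promoter window of a protein-coding gene also held 70 of the summits, and the other 66 lay in none. A summit was shared by 2 snoRNA genes in 8 cases, and 11 members had 2 or more summits.

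Members near a protein-coding start were bound in 83 of 153 cases (54.2%, interval 46.0 to 62.3) and those farther away in 50 of 193 (25.9%, interval 19.9 to 32.7), and these intervals do not overlap. With only summits that have no protein-coding start nearer, the shares were 29.4% (interval 22.3 to 37.3) and 25.9%, and the intervals overlap. They also overlap with a window of 500 bp upstream to 100 bp downstream, at 37.3% (29.6 to 45.4) and 24.4% (18.5 to 31.0). In the full window, the share was 67.9% up to 300 bp (36 of 53), 47.0% from 300 to 1000 bp (47 of 100), 30.8% from 1000 to 2000 bp (24 of 78) and 22.6% beyond 2000 bp (26 of 115). Close summits stood at 30.2%, 22.0%, 25.6% and 15.7% of members in the same bins. Inside coding spans the close shares were 15.8%, 15.9%, 21.6% and 14.1%. Outside them they were 66.7% (10 of 15, interval 38.4 to 88.2), 32.4%, 33.3% and 17.6% (9 of 51, interval 8.4 to 30.9), so the intervals of the nearest and the farthest bin do not overlap there. snRNA and tRNA genes over 1000 bp from coding starts had close summits in 14.7% (10 of 68) and 19.2% (74 of 386), against 19.7% (38 of 193) of snoRNA genes and 2.33% (4 of 172) of microRNA genes. The median position of the strongest summit was -76 bp for snoRNA, -53 bp for snRNA, -29 bp for tRNA and -344 bp for microRNA genes.

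**Figure D2:**
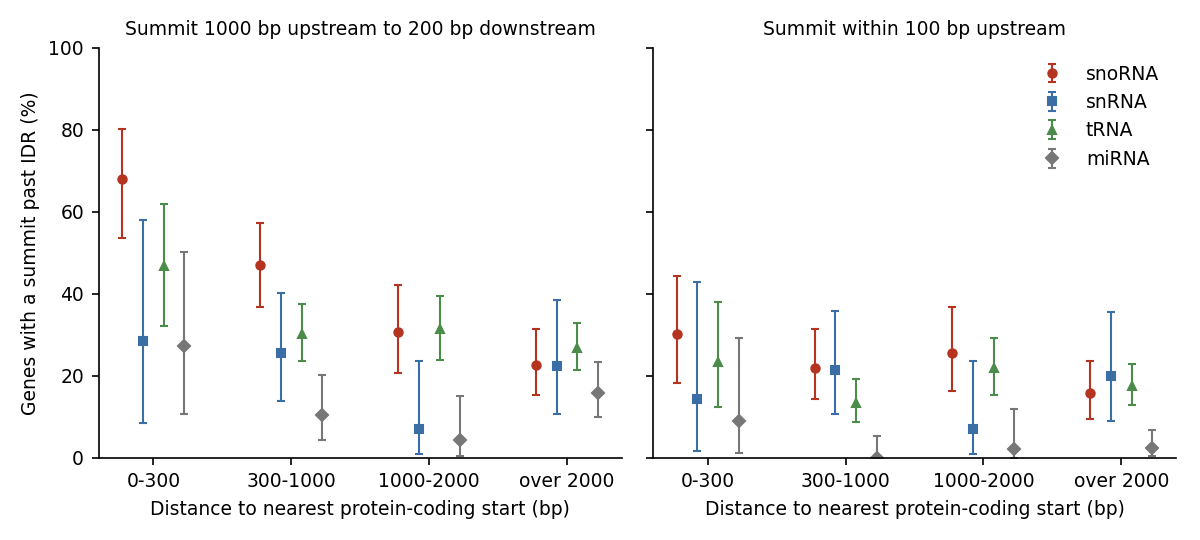
Share of genes with an IDR-thresholded summit in percent (y axis) by distance to the nearest protein-coding start in bp (x axis), with 95% exact intervals as bars. Left, the whole promoter window, where the snoRNA share goes from 67.9% to 22.6%; right, summits 0 to 100 bp upstream, where the snoRNA shares lie between 30.2% and 15.7%.

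Inside protein-coding spans 76 of 216 members were bound (35.2%, interval 28.8 to 42.0) and outside them 57 of 130 (43.8%, interval 35.2 to 52.8), with overlapping intervals. The intervals separate when only summits with no protein-coding start nearer are counted, at 19.0% inside (14 to 24.9) and 41.5% outside (33.0 to 50.5). They also separate with the window of 500 bp upstream to 100 bp downstream, at 24.1% (18.5 to 30.3) and 40.0% (31.5 to 49.0). Close summits stood at 36 of the 216 (16.7%, interval 12 to 22.3) and at 40 of the 130 (30.8%, interval 23.0 to 39.5), where the intervals do not overlap. Among members on the strand of the host, those in introns were bound in 59 of 143 cases (41.3%, interval 33.1 to 49.8) and those over a host exon in 4 of 40 (interval 2.79% to 23.7%). By chromosome, 30 of 74 members were bound on I, 31 of 71 on II, 20 of 54 on III, 25 of 59 on IV and 23 of 55 on V. On X, 4 of 33 were bound (12.1%, interval 3.4 to 28.2), namely T27A8.8, W01H2.11, D2021.6 and M163.14, which are named because there are so few. Over all chromosomes together, 10.5% of all annotated genes were bound. The share of all genes on each chromosome was not counted, so the low count on X cannot be read as particular to snoRNA genes.

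Host genes of snoRNAs on the same strand had a promoter peak of their own in 83 of 159 cases (52.2%, interval 44.1 to 60.2), and the median signal of those peaks was 199. All protein-coding genes had such a peak in 16.9% and a median signal of 121. The 13 hosts with an rpl- or rps- symbol, which mark proteins of the cytosolic ribosome, were all bound (100%, interval 75.3 to 100), with a median signal of 1110, and 17 of their 19 snoRNAs had a summit in their own window. None of those 19 had a close summit (interval 0 to 17.6%). The other 146 hosts were bound in 70 cases (47.9%, interval 39.6 to 56.4), with a median signal of 150. Among these, the mitochondrial ribosomal protein gene mrps-2, named after its value was seen, had no promoter peak past the threshold. The split was by symbol alone, so genes for cytosolic ribosomal proteins under other symbols would count among the 146.

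Where the host had a promoter peak, 47 of 106 snoRNAs inside it were called (44.3%, interval 34.7 to 54.3), and in 40 of the 47 the summit was also in the promoter window of the host. Where the host had none, 16 of 77 were called (20.8%, interval 12.4 to 31.5) and 14 of those 16 had a close summit. Such a host has no summit to share, so the split itself sets part of this difference. nol-56, which encodes a core protein of box C/D particles, hosts 4 snoRNAs: K07C5.11, the nearest to its start, was called with the summit of the host (signal 254, at -403 bp), and the other 3 were not. top-2, a DNA topoisomerase gene with a promoter signal of 1994, hosts K12D12.6, K12D12.7 and K12D12.8, and these had a promoter summit in the list of replicate 2 and in no other list. nol-56 and top-2 are named because they host the most snoRNAs besides rpl-6.

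The strongest of all peaks in snoRNA windows stood at rpl-15, a large ribosomal subunit protein gene, and reached K11H12.12 (chrIV:653902-654030, minus strand) and K11H12.13 (chrIV:654229-654361, minus strand) in its introns. Its pooled signal was 8593, and the replicates had 4926 and 3705 (mean 4316 ± 864, SD, n = 2). The summit was at -900 bp of K11H12.12 and -569 bp of K11H12.13, and 354 bp from the rpl-15 start. F28D1.13 in rps-23 followed with a signal of 2514 (replicates 1428 and 1098, mean 1263 ± 233, SD, n = 2), at -674 bp. The start nearest to that summit belonged to dpm-3, a neighbour of rps-23.

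Ribosomal protein genes hosted 10 of the 12 strongest members, all with summits at -379 bp or farther upstream. R151.11 and R151.12 in rpl-6 shared a summit with a signal of 1775 (replicates 995 and 786). D1007.20 in rpl-24.1 had 1671 (880 and 801), B0412.6 and B0412.7 in rps-29 shared 1250 (704 and 545), C16A3.11 in rps-13 had 1115 (625 and 493) and F53G12.12 in rpl-7 had 1105 (629 and 472). The remaining pair were C06A1.9 in cdc-48.1, an AAA ATPase gene, with 2010 (1078 and 936) at -506 bp, and F39B2.14 in tmem-107, with 1931 (1099 and 829) at -127 bp. Replicate 1 had the higher value at each of these peaks, as it had at 108 of the 133 bound members (median log2 ratio 0.29) and at 3248 of the 4179 IDR peaks with a summit in both (0.34). The values were not scaled between replicates, so SDs include that offset.

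**Figure D3:**
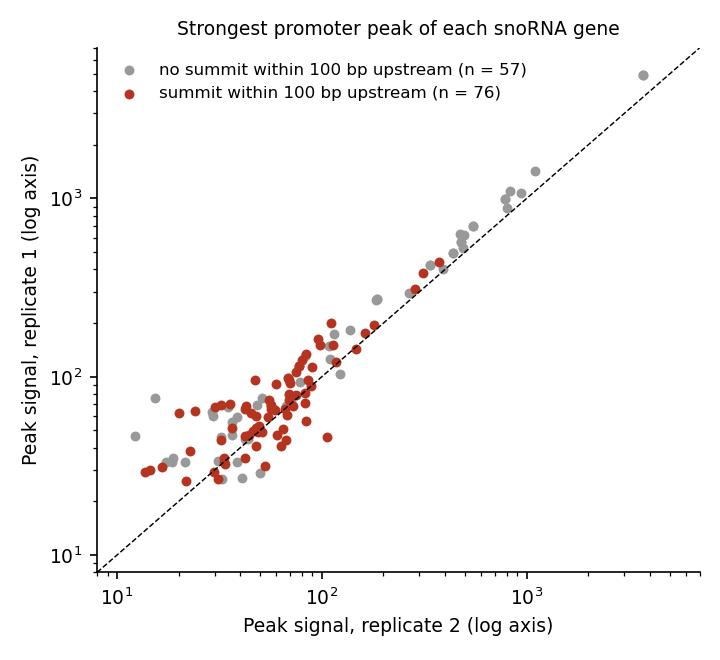
Signal of the strongest promoter peak of each bound snoRNA gene in replicate 2 (x axis, log scale) and replicate 1 (y axis, log scale); the dashed line marks equal values. The 76 members with a summit within 100 bp upstream are red (in 3 of them the plotted peak is a stronger one farther away) and the other 57 grey; most points lie above the line, and the highest values are grey.

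Outside coding spans, 5 of the 8 strongest members had their strongest summit close to the start. Y53F4B.47 (chrII:15025814-15025893, minus strand) led these, with a signal of 590 at -87 bp (replicates 310 and 285, mean 297 ± 17.2, SD, n = 2). The cap methyltransferase gene cmtr-1 starts 134 bp from that summit. C36E8.11 had 353 at -66 bp (194 and 180), M7.15 had 342 at -71 bp (177 and 163), F09G2.14 had 309 at -83 bp (199 and 111) and T26A8.6 had 261 at -54 bp (163 and 95.4). F59C6.15 had its strongest summit far upstream, with a signal of 815 at -951 bp and 46 bp from the start of nlp-4, a neuropeptide gene, and a further one of 565 at -89 bp. T27A8.8 (458 at -774 bp; replicates 270 and 185) and W06H8.17 (303 at -200 bp; replicates 173 and 114) had no close summit.

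Some of the strongest peaks at members over 1000 bp from every protein-coding start lay close to the snoRNA start. ZK994.7 (chrV:8500579-8500645, plus strand) lies in an intron of the peroxidasin gene pxn-1, 5690 bp from the nearest coding start, and had a signal of 277 at -55 bp (replicates 143 and 147, mean 145 ± 2.29, SD, n = 2). C08D8.3 (chrV:8349108-8349187, plus strand) inside C08D8.1 had 220 at -44 bp (134 and 83.5), 2563 bp from such a start. F25H2.15 had 208 at -40 bp (125 and 80.3), and its start is 1084 bp from that of pas-5, a proteasome subunit gene. W01H2.11 had 245 at -590 bp (126 and 109), with the nearest coding start 4597 bp from the summit. In this class as a whole, 37 of the 50 strongest summits (74.0%) were close, beside 36 of 83 (43.4%) in members nearer to a coding start and 15.8% of all bound genes. At the same distance from coding starts, the share was 81.8% for bound snRNA genes (9 of 11) and 66.4% for bound tRNA genes (73 of 110). It was 9.09% for bound microRNA genes (2 of 22), so the trait is not particular to snoRNA genes.

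Both element pairs were searched within 150 bp upstream of every gene, on both strands. They were composed after the sequences at close summits had been seen, so their shares are descriptions. The tandem pair occurred on the strand of the gene at 30 snoRNA genes (8.67%) and 22 of 129 snRNA genes (17.1%), but at 33 of 46415 genes of all other biotypes (0.0711%), among them 6 protein-coding genes. On the opposite strand it occurred at no snoRNA gene. The box pair occurred at 23 snoRNA genes (6.65%), at no snRNA gene and at 90 of the 46415 other genes (0.194%), and on the opposite strand at 1 snoRNA gene. Upstream windows of all 46890 genes held the tandem pair in 0.181% and the box pair in 0.241%. No gene held both pairs among the members.

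Close summits were counted in members with and without a pair. Of the 30 with the tandem pair, 19 had a close summit (63.3%, interval 43.9 to 80.1), and of the 23 with the box pair, 20 did (87.0%, interval 66.4 to 97.2). Among the 293 members with neither, 37 did (12.6%, interval 9.05 to 17.0). The 76 close summits thus comprised 19 with the tandem pair, 20 with the box pair and 37 with neither. With 1 mismatch allowed over the 10 fixed letters, 54 of the 76 had either pair, and the looser box pair then occurred at 5.19% of protein-coding genes and the looser tandem pair at 0.24%. The shares with a close summit were then lower, at 23 of 39 members for the tandem pair (59.0%) and 31 of 60 for the box pair (51.7%). For either looser pair it was 54 of 99 (54.5%, interval 44.2 to 64.6), and for neither 22 of 247 (8.91%). With the exact pairs, signals at close summits had a median of 174 with the tandem pair (68.7 to 590), 108 with the box pair (45.2 to 216) and 103 with neither.

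Positions of the pairs and of the close summits were compared. Where present, the tandem pair began at a median of -60.5 bp (-82 to -56) and ended at -42.5 bp, and in 15 of 19 members the close summit was within 20 bp of its middle. Over all 19, the close summit lay a median of 14 bp downstream of the middle (-25 to 30). The box pair began at a median of -58 bp (-99 to -45) and ended at -6 bp, and 12 of its 20 close summits were within 20 bp of the middle. Over all 20, the median position relative to the middle was -16.25 bp (-61.5 to 3). These positions are of the match with the shortest gap. They and the count within 20 bp would shift if other fitting blocks were chosen, as in C51F7.3. In the printed lines, the tandem pair of T26A8.6 begins at -60 bp with its summit at -54 bp, and the box pair of M106.6 begins at -62 bp with its summit at -59 bp.

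**Figure D4:**
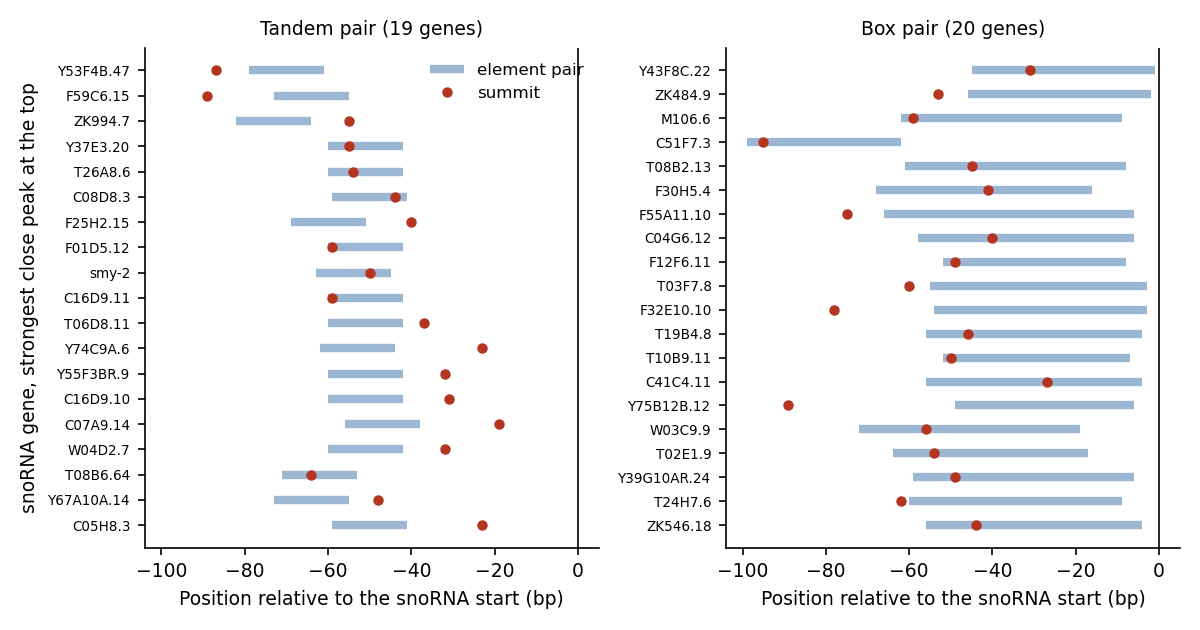
Position of the element pair (bar) and of the close summit (point) relative to the snoRNA start in bp (x axis), for the 19 members with the tandem pair and the 20 with the box pair, ordered by signal of the close peak (y axis). Within 20 bp of the middle of the pair lie 15 of the 19 and 12 of the 20 summits.

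Members whose sequences are printed had peaks in both replicates where a close summit is given. F01D5.12 had 185 at -59 bp (replicates 96.6 and 86.2), and its blocks GGAACCCG and TGTCCG are letter for letter those of K02F6.11, which had no promoter peak in any list. For the box pair, M106.6 inside the condensin gene mix-1 had 179 at -59 bp (88.7 and 89.0), C51F7.3 inside frm-7 had 168 at -95 bp (98.8 and 68.5), and F30H5.4 had 148 at -41 bp (79.8 and 69.1), 9413 bp from the nearest coding start. The box pair and the summit of C51F7.3 lie inside another member, C51F7.4 (chrV:12303599-12303693, plus strand), the summit 14 bp past its start, so this peak cannot be assigned to C51F7.3 alone. F55A11.10 had 141 at -75 bp (56.4 and 83.8), and there the start of F55A11.6 was nearer to the summit, at 49 bp. Y43F8C.22 had a close summit of 216 at -31 bp and a stronger one of 694 at -925 bp, 82 bp from the start of its host Y43F8C.7.

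Not every pair had a summit beside it. Without a close summit were 11 members with the tandem pair, 6 of them without a promoter peak in any list, and 3 with the box pair, 2 of them without one. Over the whole genome, 20 of the 30 tandem pairs upstream of snoRNA genes had an IDR summit within 100 bp (66.7%, interval 47.2 to 82.7), as had 8 of 21 upstream of snRNA genes (38.1%, interval 18.1 to 61.6) and 3 of 888 elsewhere (0.338%, interval 0.0697 to 0.984). For the box pair, this was 21 of 23 upstream of snoRNA genes (91.3%, interval 72.0 to 98.9), 107 of 453 inside tRNA genes (23.6%, interval 19.8 to 27.8) and 45 of 8049 elsewhere (0.559%, interval 0.408 to 0.747). A match is a description of letters and not a measured site.

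**Figure D5:**
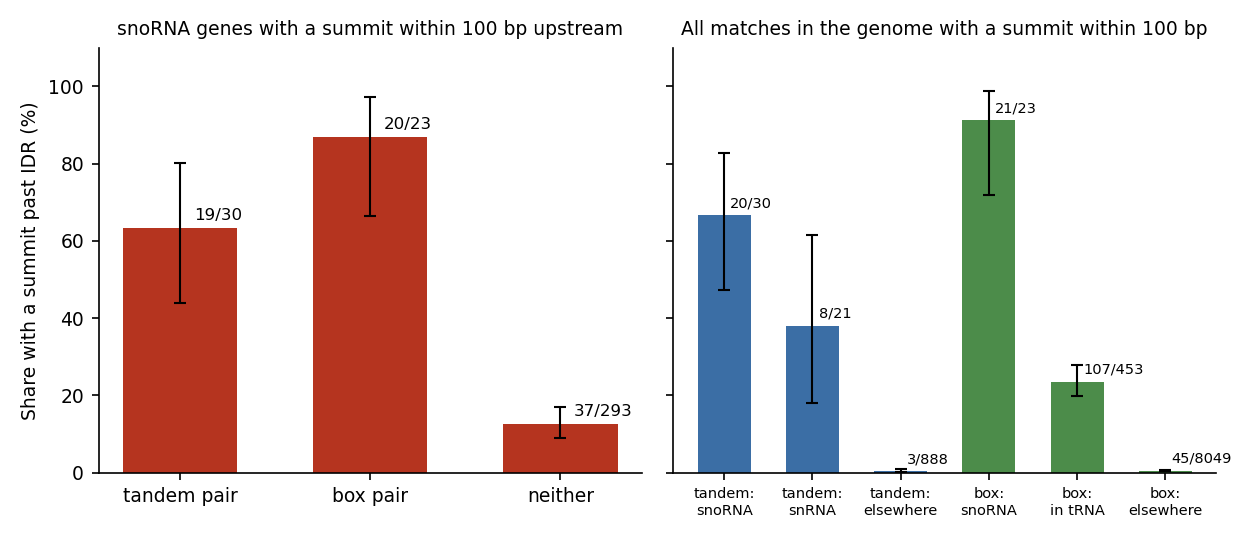
Left, share of snoRNA genes with an IDR-thresholded summit within 100 bp upstream in percent (y axis) for members with the tandem pair, the box pair or neither. Right, share of all matches of each pair in the genome with a summit within 100 bp, by location; bars carry 95% exact intervals and the numbers behind them, with 63.3%, 87.0% and 12.6% on the left and under 1% elsewhere in the genome.

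Sequence at the summits themselves also set the kinds side by side. Within 50 bp of the 76 close summits GC content was 54.8%, beside 48.4% at the other 60 summits in snoRNA windows and 44.9% at the 4082 remaining IDR summits. GAGAGA, on either strand, occurred at 14.5%, 25% and 29.0% of these, GACGCA at 7.89%, 8.33% and 17.7%, and ACCGTA at 1.32%, 23.3% and 7.62%. These 6-mers and the window were chosen with earlier results known.

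Below the threshold, 213 members had no promoter peak past IDR. A pooled peak stood at 97 of them, with signals of 7.55 to 41.9 (median 16.9) and 16 close summits, and 116 had none. The threshold lay at a signal of 42.2 in the pooled list, where the median of all IDR peaks was 87.4. Just above it were C29F5.11 (43.4), T19C4.11 (45.0) and ZK546.18 (45.2), and just below it F26D10.24 (41.9), K07C11.11 (41.0) and K02F3.15 (40.8). The replicate values of these were uneven: C29F5.11 had 5.20 and 19.5, F26D10.24 had 34.0 and 8.37, and K07C11.11 had 8.84 and 31.6. The next members below were ZK930.15 (40.8), K09E9.5 (40.5) and Y23H5B.10 (39.9). Of these 6 members below the threshold, F26D10.24 (-69 bp), K09E9.5 (-93 bp) and Y23H5B.10 (-55 bp) have their pooled summit close to the start.

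Reads from near-identical genes could be split or shared by the alignment, which leaves some members uncertain. Members whose sequences from start to end of the gene differ by at most 10% formed 7 pairs of 11 genes. The bases upstream of the starts, where the close summits lie, were not compared. F25H2.15, F59C6.15 and Y67A10A.14 were 93.8% to 97.1% identical to each other, and each had a close summit. In C53B7.8 and C46C2.8, F43A11.8 and T19C4.11, and K09E9.5 and ZK643.9, the latter of each pair had a close summit past the threshold and the former did not.

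Genes for the core proteins of snoRNA particles were bound in 8 of 8 cases, beside 16.9% of protein-coding genes. Among box C/D proteins, the methyltransferase gene fib-1 had a signal of 572 at -317 bp (replicates 317 and 253), nol-58 had 289 at -319 bp, nol-56 had 254 at -261 bp and snu-13 had 220 at -298 bp. Among box H/ACA proteins, the pseudouridine synthase gene dkc-1 had 138 at -217 bp (64.3 and 80.3), nola-3 had 315 at -625 bp, Y48A6B.3 had 290 at -323 bp and garr-1 had 88.4 at -348 bp (53.2 and 31.7). All 8 summits lay over 200 bp upstream. The strongest summits of all bound genes had a median position of -217 bp, and those of the 57 bound snoRNA genes without a close summit one of -506 bp.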

How the data were processed

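LSY-2 ChIP-seq peak lists of 2 biological replicates of 1 group were used, on the ce11 build: 1 list for each replicate, 1 pooled, and 1 past an IDR threshold. Coordinates, counted from 1, were joined to gene models of Ensembl release 115 and to the RefSeq genome, both of assembly WBcel235. Per the file listings and labels, the authors deposited these as narrowPeak files. For the alignment, the peak calling and the IDR cut-off, tools and settings were not given in the sources used here. The signal of each peak is the authors' deposited value, of a statistic not given. The authors' deposited −log10 q value, so named by the narrowPeak layout, reached its ceiling of 4.16 for all 133 called members and separated none. The lists hold no read counts, so the depth of each sample is unknown; each list before IDR holds 30000 peaks, which sets its length.

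A gene was called when a summit lay 1000 bp upstream to 200 bp downstream of a transcript start, and close when it lay 0 to 100 bp upstream. A member was inside when it lay wholly within a protein-coding span on either strand. The signal of a replicate at a pooled peak is that of its nearest summit within 200 bp. Shares have 95% exact Clopper-Pearson intervals that cover counting only; no test was run, since there is 1 group. Replicates are separate samples per the labels. Named were the 12 strongest members, the 8 strongest outside spans, the 6 strongest over 1000 bp from coding starts, the 6 strongest not past IDR, their hosts or neighbours, and 8 core particle proteins (garr-1 by its sequence name, since the symbol first planned belongs to another gene). The members and lists were chosen with earlier results of these data known. Counting used pandas 2.3.3 and numpy 2.4.6 under Python 3.11.15, intervals scipy 1.17.1 and figures matplotlib 3.10.9, and the counting was tested on simulated data. Alternatives covered stronger peaks, the strongest 4218 peaks of each replicate alone, other windows, and summits without a nearer coding start.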

Additional observations from a re-analysis of the deposited data

How the results depend on the processing

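Alternatives for close summits, element pairs and hosts were added after seeing the data. Of 78 alternative values for 11 results, 51 stayed inside the interval or spread of the reported value, and 27 moved outside it. With the strongest 50% of IDR peaks, shares fell to 30.1% for all members, 28.7% inside, 32.3% outside, 43.1% within and 19.7% over 1000 bp, 17.3% for close summits and 40.3% for hosts, and the median signal was 167. With a window of 500 bp upstream to 100 bp downstream, they were 30.1% for all members, 24.1% inside, 37.3% within 1000 bp and 40.3% for hosts, with a median signal of 117 and 84.5% of summits nearer to the snoRNA start. This window kept 13 of the 24 named calls and lowered the signal of F59C6.15 to 565 and of W01H2.11 to 48.5. With 2000 bp upstream, values were 46.0% for all members, 44.9% inside, 34.2% over 1000 bp, 63.5% of summits and a median signal of 144. Counting only summits with no protein-coding start nearer gave 27.5% for all members, 19.0% inside and 29.4% within 1000 bp. Within 50 bp upstream, summits stood at 8.96% of members, 36.7% of those with the tandem pair and 43.5% of those with the box pair. To leave out a replicate, the list of the other one was cut to its strongest 4218 peaks, the number past IDR. The stability of the shares in this alternative holds for lists of that matched length. Leaving out either replicate in this way moved the median signal alone, to 63.2 and 69.6, on the scale of the other replicate's own list. The cause of these shifts was not tested beyond what each alternative's own construction sets (fewer peaks or another window).

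No paired analysis was possible because there is 1 group and no comparison between groups. Depth is unknown, and a member without a peak is not shown to be unbound. Peaks of pooled larvae show no cell type.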
